A study of Homo sapiens with 12 samples.

Results

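The NBPF genes (neuroblastoma breakpoint family) were examined in NCI-H295R cells, a line grown from a human adrenocortical carcinoma that secretes cortisol. The 10 members, NBPF1, NBPF3, NBPF8, NBPF9, NBPF10, NBPF11, NBPF12, NBPF14, NBPF15 and NBPF19, were taken by symbol from a table of 60662 genes. The family was selected on the rise of NBPF1 with CJ28 in these same samples, so every difference between CJ28 and another group is given as a description, without a p-value. The 3 groups were vehicle (VEH, DMSO at 0.1%), CJ28 and MET, both compounds at 30 µM. RNA was taken 24 h after they were added, which followed a serum-free period of 12 h. Each group held 4 samples that the submitters call biological replicates. CJ28 and MET are both inhibitors of cortisol synthesis. MET is metyrapone, which blocks the 11β-hydroxylase of the adrenal cortex. All samples are of a single tumor line, and no untreated culture was among them. RNA was depleted of ribosomal RNA, so transcripts without a poly(A) tail were sequenced too, in stranded libraries.

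Values are TPM, which give a gene's part of the whole transcript pool of a sample once transcript length has been divided out. TPM can be compared between genes as well as between samples. A gene's TPM also drops when the rest of the pool grows, and read numbers cannot be recovered from it.

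NBPF genes encode proteins built from repeats of the Olduvai domain, and the family has expanded strongly in the human lineage, mostly by duplication of segments of chromosome 1. The first member, NBPF1, was found at a translocation breakpoint in a child with neuroblastoma, a tumor of the sympathetic and adrenal medullary lineage, and has been studied as a possible tumor suppressor. The ancestral Olduvai domain is found in PDE4DIP, a centrosomal and Golgi protein. The 5′ part of several NBPF genes was acquired from EVI5, a gene on the same chromosome whose protein acts in the cell cycle. Because the copies are recent, they share long stretches of sequence, and a read often matches more than 1 of them.

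The members lay on chromosome 1 (GRCh38, positions as deposited). NBPF1 (ENSG00000219481.10) took chr1:16562319-16613562 on the minus strand, and NBPF3 took chr1:21440128-21485005 on the plus strand. NBPF8 started at 120419850. The other members stood between 144421386, the start of NBPF15, and 149556361, the end of NBPF19. NBPF8 was classed by the deposited table as a transcribed unprocessed pseudogene.

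The sequence upstream of the start sites sorted the members into groups, and these groups are used below to order the values. RefSeq windows (GRCh38.p14) held the 250 bases before and the 50 bases after each start, and all 10 members had one. Only the 250 upstream bases are printed, 5′ to 3′ on the strand of the gene. They are shown so that the 4 kinds of annotated NBPF start can be compared with each other and with EVI5. Capitals mark GCGCNNGCGC, here called the GCGC palindrome, and the NF-κB consensus, each searched on both strands. The NBPF1 stretch is chr1:16613565-16613814 (minus strand), NBPF3 is chr1:21439887-21440136 (plus), NBPF15 is chr1:144461670-144461919 (minus), and the second of 2 EVI5 starts is chr1:92785109-92785358 (minus). NBPF12 is chr1:146938074-146938323 (plus), NBPF10 is chr1:146144805-146145054 (minus), and NBPF19 is chr1:149474795-149475044 (plus).
NBPF1: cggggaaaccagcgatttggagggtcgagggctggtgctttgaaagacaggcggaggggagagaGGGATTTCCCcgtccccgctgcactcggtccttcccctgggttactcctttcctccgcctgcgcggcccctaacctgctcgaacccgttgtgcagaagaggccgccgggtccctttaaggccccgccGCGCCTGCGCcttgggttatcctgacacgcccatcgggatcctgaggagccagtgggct
NBPF3: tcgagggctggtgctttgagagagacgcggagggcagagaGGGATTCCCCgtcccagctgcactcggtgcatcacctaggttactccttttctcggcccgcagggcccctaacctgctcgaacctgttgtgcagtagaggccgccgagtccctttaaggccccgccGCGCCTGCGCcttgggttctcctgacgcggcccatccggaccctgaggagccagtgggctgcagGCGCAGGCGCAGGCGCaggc
NBPF15: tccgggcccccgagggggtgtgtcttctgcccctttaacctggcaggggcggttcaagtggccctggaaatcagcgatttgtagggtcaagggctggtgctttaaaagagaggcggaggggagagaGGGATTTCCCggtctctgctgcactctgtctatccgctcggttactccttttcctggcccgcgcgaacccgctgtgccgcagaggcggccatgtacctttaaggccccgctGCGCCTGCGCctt
EVI5: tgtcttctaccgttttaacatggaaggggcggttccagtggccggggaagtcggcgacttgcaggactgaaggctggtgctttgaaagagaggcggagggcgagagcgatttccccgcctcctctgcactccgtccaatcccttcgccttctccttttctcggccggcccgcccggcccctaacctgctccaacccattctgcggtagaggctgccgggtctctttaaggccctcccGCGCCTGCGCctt
NBPF12: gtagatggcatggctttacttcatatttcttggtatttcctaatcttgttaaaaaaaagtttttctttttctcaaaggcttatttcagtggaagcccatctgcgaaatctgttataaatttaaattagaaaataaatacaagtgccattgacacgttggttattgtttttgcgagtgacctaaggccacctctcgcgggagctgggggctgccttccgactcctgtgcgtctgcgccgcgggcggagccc
NBPF10: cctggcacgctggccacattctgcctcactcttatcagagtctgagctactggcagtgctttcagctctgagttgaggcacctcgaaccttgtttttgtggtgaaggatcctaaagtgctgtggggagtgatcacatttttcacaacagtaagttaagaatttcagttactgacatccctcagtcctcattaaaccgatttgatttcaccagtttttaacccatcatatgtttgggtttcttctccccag
NBPF19: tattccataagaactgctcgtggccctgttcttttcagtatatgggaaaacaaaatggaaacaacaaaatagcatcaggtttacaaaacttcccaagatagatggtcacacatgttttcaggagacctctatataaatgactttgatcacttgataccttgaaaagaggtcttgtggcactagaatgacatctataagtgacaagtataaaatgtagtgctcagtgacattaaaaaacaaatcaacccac

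NBPF1, NBPF3, NBPF8, NBPF9 and NBPF15 had starts of 1 kind. The windows of NBPF1 and NBPF3 were identical at 87.5% of 289 aligned bases, and the window of NBPF1 matched that of EVI5 at 79.2% of 255. The windows of NBPF8 and NBPF15 were identical at 99.0% of 290 bases. The GCGC palindrome was found in the windows of all 5 of these members and in that of EVI5. It was found in none of the windows of the other 5 members, and 8.32% of all 35116 RefSeq windows held it. The NF-κB consensus was found in the same 5 members, against 5.91% of all windows, and not in the EVI5 window. These 5 windows align with each other, so a shared motif is not 5 separate observations. NBPF11 and NBPF12 had a start of their own, identical at 99.2% of 261 bases. NBPF10 shared another with the second of the 2 NBPF14 windows, identical at 99.6% of 265 bases. The first NBPF14 window aligned over 100 bases or more with none. The window of NBPF19 aligned over 100 bases or more with none of the other windows. The RefSeq starts of NBPF10 and NBPF14 lie inside the longer genes of the deposited table. Their windows therefore need not be promoters of the genes that were quantified, and serve only to order the values.

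Among other motifs, the GC box (GGGCGG) was found in 45.0% of all windows, the CCAAT box in 34.6%, and the TATA box (TATAAA) in 11.5%. The aryl hydrocarbon receptor core (GCGTG) was found in the windows of NBPF1, NBPF10 and NBPF14 and in 36.5% of all windows. AP-1 sites (TGANTCA), the CRE (TGACGTCA) and an ATF4 response core (TTGCATCA) were found in no member's window, and they were found in 7.71%, 1.85% and 0.866% of all windows.

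How far each member can be told from its relatives was measured on transcript sequence. All stretches of 100 bases in the GENCODE transcripts (release 44) were compared between genes. Transcripts of a gene were pooled without weighting by their level. The study sequenced both ends of each fragment, so these shares are not shares of ambiguous reads. NBPF1 and NBPF3 were nearly unique. Of 11708 stretches of NBPF1, 91.1% occurred in no other gene, and for NBPF3 the share was 98.1%. It was 71.1% for NBPF9, 53.3% for NBPF12, 52.3% for NBPF15, 50.6% for NBPF8 and 42.6% for NBPF11. NBPF10 had 27.6%, NBPF14 had 23.7% and NBPF19 had 11.2%. The stretches that the other 9 members shared with NBPF1 made up between 0.856% (NBPF3) and 7.06% (NBPF11) of their own. The most entangled pair was NBPF10 and NBPF14, where 59.0% of NBPF10 was found in NBPF14. Next came NBPF11 and NBPF12, where 42.7% of NBPF11 was found in NBPF12. The values of NBPF10, NBPF14 and NBPF19 are therefore uncertain as single genes, and those of NBPF11, NBPF8, NBPF15 and NBPF12 partly so.

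**Figure D1:**
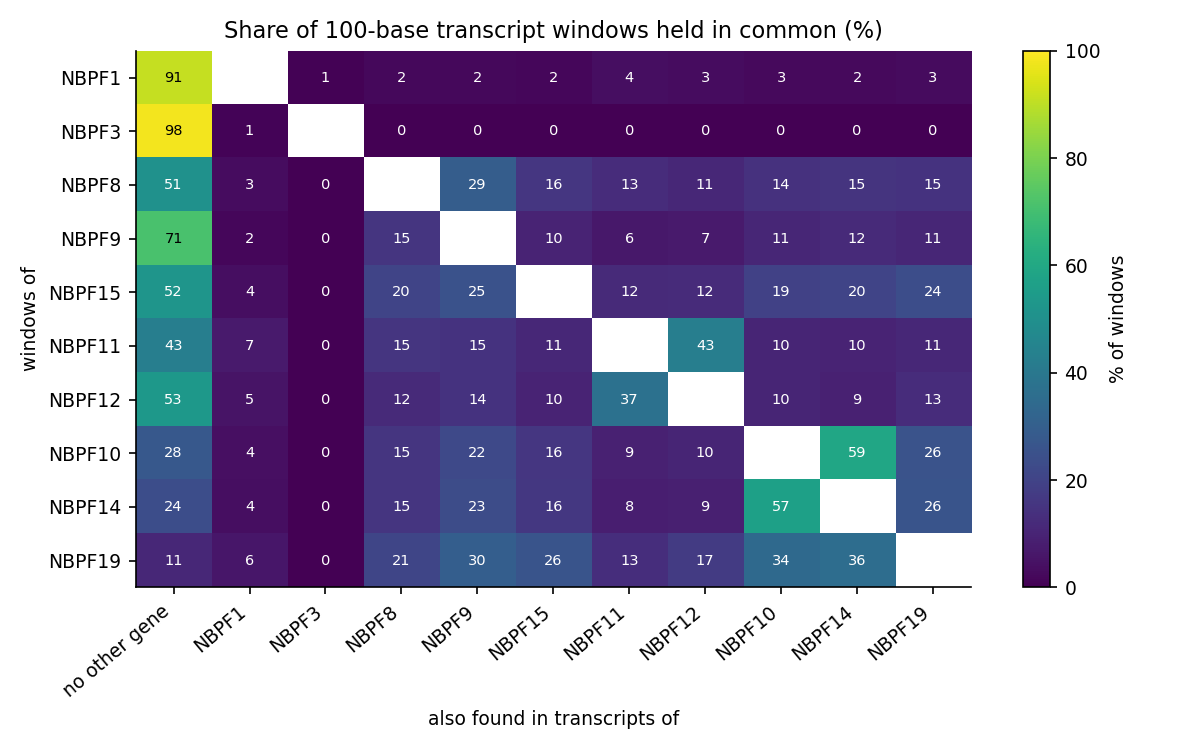
Share of each member's transcript stretches of 100 bases (rows, in percent) that also occur in another member (columns). NBPF1 and NBPF3 share little with the rest, while NBPF10 and NBPF14 share 59.0% and 56.8% with each other.

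NBPF1 was the most abundant member in every sample and was 2.74 times as high with CJ28 as with VEH. It measured 29.86, 30.42, 29.36 and 31.00 TPM in the 4 VEH samples, 82.84, 85.53, 82.00 and 80.14 TPM in the CJ28 samples, and 29.11, 29.28, 28.15 and 28.28 TPM in the MET samples. The CJ28 samples thus stood far above all others, and every MET sample stood below every VEH sample. The means were 30.2 ± 0.708 TPM for VEH, 82.6 ± 2.24 TPM for CJ28 and 28.7 ± 0.573 TPM for MET (SD, n = 4). The difference between CJ28 and VEH was 1.45 on the log2(TPM + 0.1) scale (SE 0.031). In cell lysates, more RNA per cell and a larger number of cells with this RNA cannot be told apart. Nuclear protein-coding genes held 21.3% to 21.4% of the TPM in CJ28 samples and 24.3% to 24.8% in VEH samples, and the part of this shift in the values was not tested. With the samples scaled by the median of ratios, the NBPF1 difference was 1.60, and with TPM recomputed over nuclear protein-coding genes it was 1.66.

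The other members with an NBPF1-type start are NBPF15, NBPF8, NBPF9 and NBPF3. NBPF15, second in abundance, measured 8.02, 8.97, 7.14 and 8.72 TPM with VEH, 12.54, 11.92, 12.26 and 11.93 TPM with CJ28, and 8.07, 6.60, 6.51 and 7.31 TPM with MET. All CJ28 samples were above all others, and the ratio of the CJ28 mean to the VEH mean was 1.48. NBPF9 measured 4.90, 5.40, 4.90 and 5.26 TPM with VEH, 7.92, 7.57, 7.85 and 7.75 TPM with CJ28, and 5.48, 5.23, 4.73 and 5.36 TPM with MET. Its CJ28 samples again stood apart, at a ratio of 1.52. NBPF8 rose less, from 5.82 ± 0.477 TPM to 7.05 ± 0.301 TPM, and its CJ28 range of 6.85 to 7.50 TPM lay above its VEH range of 5.16 to 6.29 TPM. NBPF3 was the exception in this group. It measured 3.33, 3.65, 4.71 and 3.65 TPM with VEH, 2.96, 3.42, 3.39 and 3.91 TPM with CJ28, and 4.27, 4.47, 4.27 and 3.58 TPM with MET. Its groups overlapped. NBPF3 shares with NBPF1 the closest window of any member, and its log2 difference between CJ28 and VEH was −0.16 (SE 0.11), or 0.05 with TPM over nuclear protein-coding genes.

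NBPF11 and NBPF12, which share a start of another kind, were also higher with CJ28. NBPF12 measured 3.94, 4.48, 4.33 and 4.39 TPM with VEH, 7.69, 7.70, 6.68 and 7.87 TPM with CJ28, and 4.24, 4.10, 4.32 and 4.09 TPM with MET. NBPF11 measured 3.92, 4.17, 3.24 and 3.39 TPM with VEH, 6.04, 5.43, 5.85 and 5.87 TPM with CJ28, and 3.81, 3.55, 3.54 and 3.59 TPM with MET. For both genes all CJ28 samples were above all others. The ratios of the CJ28 mean to the VEH mean were 1.75 for NBPF12 and 1.58 for NBPF11. Since the pair shares many stretches, their sum is the safer value, and it went from 7.97 ± 0.473 TPM to 13.3 ± 0.577 TPM (SD, n = 4).

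NBPF10, NBPF14 and NBPF19, the copies with the least sequence of their own, were not called higher with CJ28 than with VEH in the values as deposited. NBPF14 measured 3.85, 4.78, 4.27 and 4.83 TPM with VEH, 3.41, 3.16, 3.30 and 3.43 TPM with CJ28, and 3.84, 4.43, 4.40 and 4.29 TPM with MET. NBPF19 measured 3.26, 3.21, 3.16 and 3.29 TPM with VEH, 2.66, 2.65, 2.47 and 3.02 TPM with CJ28, and 3.18, 3.26, 3.35 and 3.08 TPM with MET. In both genes every CJ28 sample was below every other sample. NBPF10 measured 3.14, 3.52, 2.58 and 3.83 TPM with VEH, 3.21, 3.23, 3.31 and 3.48 TPM with CJ28, and 2.92, 3.02, 2.97 and 2.79 TPM with MET. Its CJ28 samples lay within the VEH range and above all MET samples. The sum of the 3 genes was 10.9 ± 0.946 TPM with VEH, 9.33 ± 0.412 TPM with CJ28 and 10.4 ± 0.394 TPM with MET, and the CJ28 and VEH ranges did not overlap. After median-of-ratios scaling the log2 difference of NBPF14 between CJ28 and VEH was −0.25, against −0.40 as deposited. That of NBPF19 was −0.11, against −0.25, and was then no longer called.

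**Figure D2:**
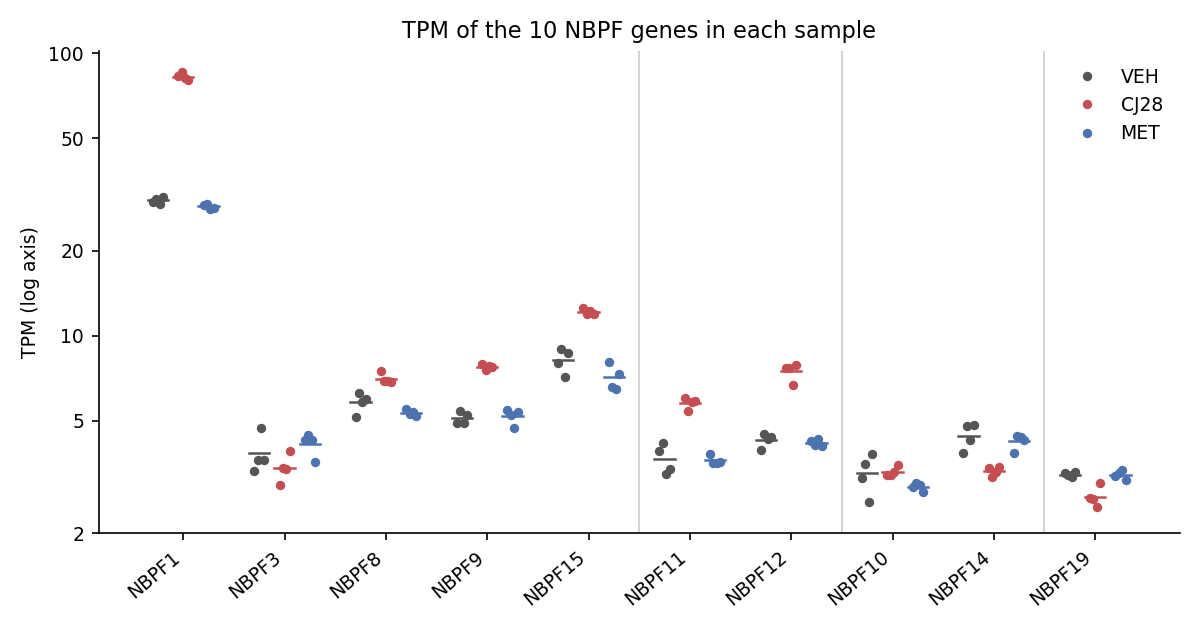
TPM of each member (log axis) in every sample, with points for samples, short bars for group means and vertical lines between the 4 kinds of start. The CJ28 points lie above the others for NBPF1, NBPF8, NBPF9, NBPF15, NBPF11 and NBPF12, and below them for NBPF14 and NBPF19.

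Levels in VEH ran from NBPF1 down through NBPF15, NBPF8, NBPF9, NBPF14, NBPF12, NBPF3, NBPF11 and NBPF10 to NBPF19. The ranges of NBPF1 and NBPF15, of NBPF15 and NBPF8, and of NBPF9 and NBPF14 did not overlap, whereas NBPF8 and NBPF9 overlapped. From NBPF14 to NBPF19 each member overlapped with its neighbor, so the lower part of the order is not resolved. With CJ28 the order was NBPF1, NBPF15, NBPF9, NBPF12, NBPF8, NBPF11, NBPF3, NBPF14, NBPF10 and NBPF19. There the ranges of NBPF9 and NBPF12, of NBPF12 and NBPF8, of NBPF3 and NBPF14, and of NBPF14 and NBPF10 overlapped, and the other neighbors did not.

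The members were also summed in each sample, since reads that match several copies are divided among them. Division among the members moves the sum only as far as their lengths differ, but reads are also shared with genes outside it. Of the stretches of NBPF19, 30.3% were found in an unnamed gene, which carries no NBPF symbol, and in no other NBPF gene. Stretches that another NBPF gene also holds were left out of this share, so it is a lower bound. The next shares were counted without that exclusion. Of the stretches of NBPF8, 24.3% were found in NBPF26. Of those of NBPF15, 23.7% were found in NBPF20. The sum was 69.38, 74.89, 69.54 and 74.34 TPM with VEH, 136.77, 137.52, 134.06 and 134.25 TPM with CJ28, and 70.42, 69.25, 67.63 and 67.58 TPM with MET. The CJ28 samples were separate from all others, and the MET and VEH ranges overlapped. The ratio of the CJ28 mean to the VEH mean was 1.88, a log2 ratio of 0.91. NBPF1 supplied 82.5% of the net gain of 63.6 TPM, NBPF15 supplied 6.21%, NBPF12 5.03%, NBPF9 4.18%, NBPF11 3.33%, NBPF8 1.94% and NBPF10 0.06%. The shares of NBPF14, NBPF19 and NBPF3, whose means were lower with CJ28, were −1.74%, −0.83% and −0.65%. NBPF1 made up 40.6% to 43.0% of the sum in VEH samples and 59.7% to 62.2% in CJ28 samples. Without NBPF1 the sum was 41.9 ± 2.40 TPM with VEH and 53.0 ± 1.15 TPM with CJ28, a ratio of 1.27, and the ranges of 39.52 to 44.47 and 51.99 to 54.11 TPM did not overlap.

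**Figure D3:**
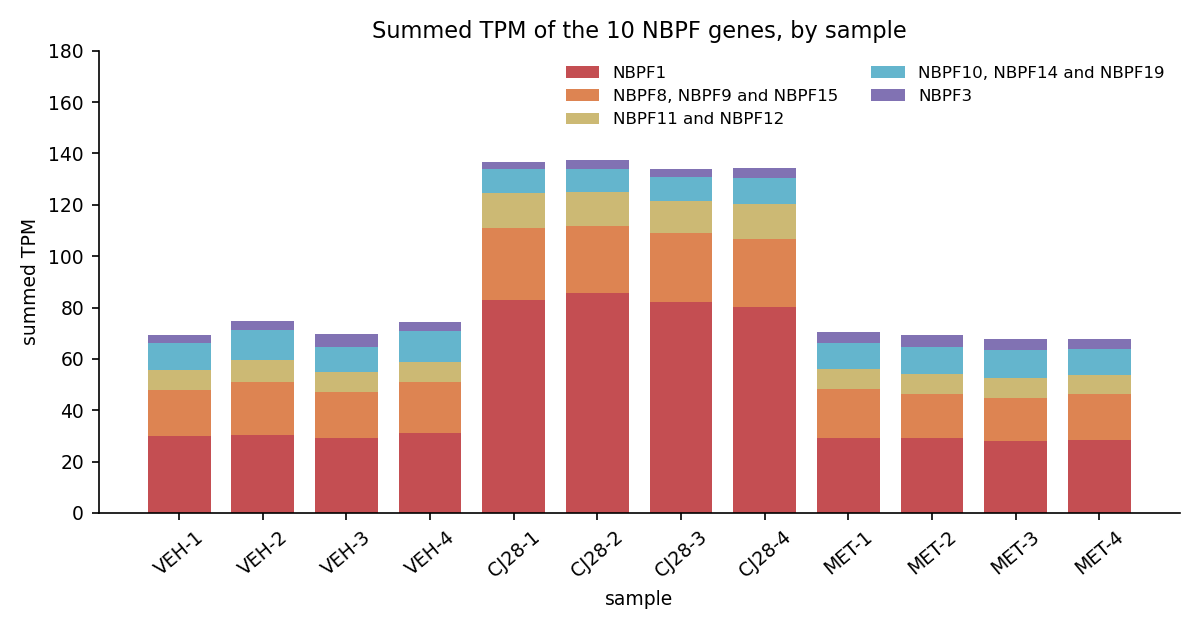
Summed TPM of the 10 members in each sample, stacked by member from 0. The CJ28 bars reach 134.06 to 137.52 TPM against 67.58 to 74.89 TPM in the VEH and MET bars, and most of the added height is NBPF1.

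MET against VEH was the comparison that the choice of the family did not use, although its VEH samples served in that choice. None of the 10 members passed the test. In limma with Benjamini-Hochberg adjustment over 16815 genes, the smallest adjusted p among the members was 0.933. Of all genes, 0.00595% were called in this comparison. The largest differences were in NBPF15, at −0.20 on the log2(TPM + 0.1) scale (SE 0.080), and in NBPF10, at −0.14 (SE 0.10). NBPF1 differed by −0.07 (SE 0.031). NBPF1 and NBPF15 had an unadjusted p under 0.05 in limma (0.0408 and 0.0258), which 5.2% of all genes had. NBPF1 was the only 1 of the 10 members whose MET and VEH samples did not overlap, and 2.81% of all genes tested had such a gap. The median difference of the members was −0.05, against −0.03 for all genes tested. The summed TPM was 68.7 ± 1.37 with MET and 72.04 ± 2.99 with VEH, a difference of −3.32 TPM (exact permutation test, two-sided, p = 0.114, where 0.0286 is the smallest p that 4 against 4 samples allow). The share of NBPF1 in the sum was 41.8% with MET and 41.9% with VEH (exact permutation test, two-sided, p = 0.83). These tests do not show that MET left the family as it was.

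Of the 10 members, 6 were called higher with CJ28 than with VEH, 2 were called lower (NBPF14 and NBPF19) and 2 were not called (NBPF3 and NBPF10). All 10 had passed the filter on low values. Of all genes, 19.9% were called higher and 37.1% lower. Nothing is read from these counts, because the contrast chose the family. The median difference was 0.42 for the members and −0.13 for all genes tested. With median-of-ratios scaling these medians became 0.57 and 0.01. With that scaling 6 members were called higher and 1 lower, and over nuclear protein-coding genes the count was the same, with NBPF10 (0.24) in place of NBPF8, which is not in that class. Over all genes, the calls were 3346 higher and 6231 lower as deposited and 4925 higher and 4430 lower when scaled.

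CJ28 against MET, at the same dose and time, shares its CJ28 samples with that contrast. The CJ28 and MET samples did not overlap in 9 of the 10 members, where they did not overlap in 50.2% of all genes tested. In limma, 6 members were called higher with CJ28 and 2 lower, where 20.9% of all genes were called higher and 34.6% lower. The log2 differences were 1.52 for NBPF1, 0.82 for NBPF12, 0.77 for NBPF15, 0.66 for NBPF11, 0.57 for NBPF9 and 0.39 for NBPF8. They were −0.34 for NBPF14 and −0.25 for NBPF19, the 2 called lower. NBPF3 (−0.27, SE 0.11), whose CJ28 and MET samples overlapped, and NBPF10 (0.17, SE 0.10) were not called. With TPM over nuclear protein-coding genes, which leave out NBPF8, 6 members were called higher, NBPF10 among them (0.37, and 0.29, also called, with median-of-ratios scaling), and NBPF14 (−0.16) and NBPF19 were no longer called. The summed TPM of the members was 1.97 times as high with CJ28 as with MET.

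**Figure D4:**
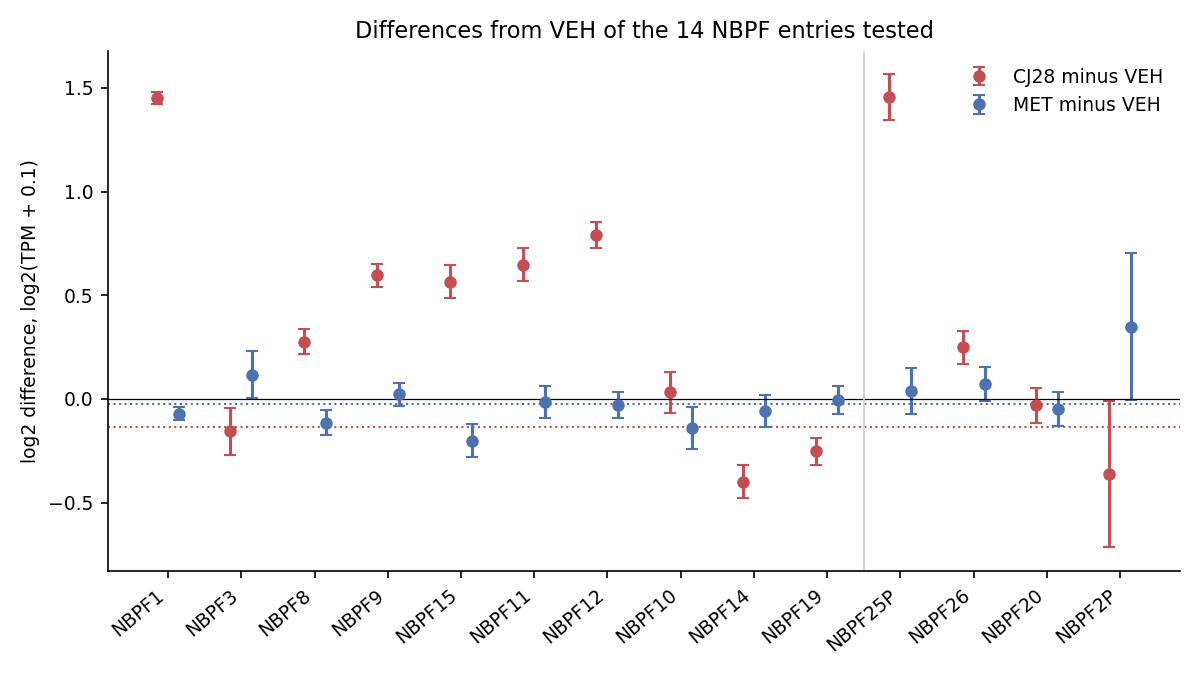
Log2 difference of each tested NBPF entry on the log2(TPM + 0.1) scale, with bars for the standard error and dotted lines for the median of all genes tested. Between MET and VEH the members lie between −0.20 (NBPF15) and 0.12 (NBPF3), while between CJ28 and VEH they run from −0.40 (NBPF14) to 1.45 (NBPF1).

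The table held 23 entries with an NBPF symbol, and 4 of the 13 that were no members passed the filter on low values. The pseudogene NBPF25P measured 0.58, 0.56, 0.66 and 0.76 TPM with VEH, 1.88, 1.99, 1.85 and 1.95 TPM with CJ28, and 0.68, 0.65, 0.65 and 0.64 TPM with MET. Its CJ28 samples were all above the others, and its log2 difference was 1.45 (SE 0.11). At this low level the value depended on the pseudocount, and was 0.83 with a pseudocount of 1 and 1.58 with 0.01. Of its transcript stretches, 60.3% occurred in no other gene and 6.38% in NBPF1. NBPF26 had a log2 difference of 0.25 (SE 0.081) between CJ28 and VEH, and its call rested on single samples, being lost without VEH replicate 1 (0.22), VEH replicate 3 (0.21) or CJ28 replicate 2 (0.20). NBPF20 differed by −0.03 and NBPF2P by −0.36 (SE 0.35), and neither was called. With MET none of these 4 entries was called. The other 9 entries reached at most 0.04 TPM, and 4 of them were listed at 0 in all 12 samples.

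Genes that touch the members were compared next. NBPF10 overlaps NOTCH2NLA and NBPF14 overlaps NOTCH2NLB on the same strand. NOTCH2NLA and NOTCH2NLB are human-specific partial copies of the receptor gene NOTCH2 that act in the growth of neural progenitors. Of the stretches of NBPF10, 5.82% were found in NOTCH2NLA and in no other NBPF gene. Of those of NBPF14, 6.15% were found in NOTCH2NLB and in no other NBPF gene. Stretches that another NBPF gene also holds were left out of both shares, so each is a lower bound. NOTCH2NLA had 11.5 TPM with VEH and 8.58 TPM with CJ28, and NOTCH2NLB differed by 0.01 on the log2 scale. The pseudogenes PFN1P2, PFN1P4, PFN1P6 and PFN1P8 overlap the spans of NBPF8, NBPF11, NBPF15 and NBPF12 on the opposite strand. Whether counting used strand is not stated, and overlap of exons was not examined. Whether their reads can be told from those of the host gene was therefore not tested. PFN1P6 went from 1.13 TPM with VEH to 2.00 TPM with CJ28, a log2 difference of 0.94 (SE 0.36), and was called higher. The other pseudogenes of this kind were not called. The nearest tested gene on each side of every member gave 20 neighbors, of which 1 was called higher with CJ28 than with VEH, 4 lower and 15 not, where 19.9% of all genes were called higher and 37.1% lower. The median of the neighbors was −0.08. NBPF1 itself stood between AL137798.1, 3.83 kb away, with 0.293 ± 0.291 TPM in VEH and 0.77 ± 0.192 TPM in CJ28, and AL137802.2, 46.6 kb away. Their log2 differences between CJ28 and VEH were 1.504 (SE 0.66) and −0.11. These flanking genes are named because they border NBPF1, a choice made after values were seen, and neither was called between CJ28 and VEH. AL137798.1 was called higher with CJ28 than with MET, at 2.15 (SE 0.66). Its MET mean was 0.153 ± 0.222 TPM, close to the pseudocount, so the size of this difference depends largely on the pseudocount. The VEH and MET means of AL137798.1 were under the minimum TPM of the filter, and only its CJ28 mean was above it. Its place among the tested genes may therefore rest on the CJ28 samples, and nothing is read from this call.

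Of 9 listed genes tied to NBPF by origin, binding or response, 8 were tested. With CJ28 against VEH 2 were called higher, 3 lower and 3 not, beside 19.9% and 37.1% of all genes, and their median was −0.04. CBY1, an antagonist of β-catenin that binds NBPF1, was higher by 0.35. CLU, a secreted chaperone, was lower by 0.16, and CDKN1A, which encodes the cell cycle inhibitor p21, was lower by 0.20. CDK5RAP2, a centrosomal protein related to PDE4DIP, differed by 0.04. EVI5, given here for its shared start sequence, differed by −0.12 and was not called. With MET none of the 8 was called.

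Of 24 listed genes from other families of the same duplicated segments of chromosome 1, 20 were tested. With CJ28 against VEH 5 were called higher, 5 lower and 10 not, beside 19.9% and 37.1% of all genes, and their median was 0.05. NOTCH2 went from 24.7 to 16.3 TPM. GPR89A, which encodes a Golgi ion channel, went from 15.1 to 18.0 TPM. SRGAP2, a regulator of neuronal migration and of spine maturation, differed by −0.11. None of the 20 was called with MET.

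The genes with the pattern most like that of NBPF1 were found by Pearson's r of log2(TPM + 0.1) over the 12 samples, among 13293 genes with a mean of at least 1 TPM. They were LONRF2 (r = 0.999), HS6ST3 (0.999), SARS1 (0.999), GAS5 (0.998) and XPOT (0.998). The points share libraries and fall into CJ28 against the rest, so r is high for genes with a like shift. Of the 13293 genes, 104 reached 0.99. LONRF2, a RING-type ubiquitin ligase, went from 10.6 ± 0.515 TPM with VEH to 26.8 ± 1.05 TPM with CJ28. HS6ST3, a heparan sulfate sulfotransferase, went from 1.98 to 6.92 TPM, and SARS1, the cytosolic seryl-tRNA synthetase, from 42.7 to 100.1 TPM. GAS5, a noncoding host of small nucleolar RNAs, went from 64.7 to 265 TPM, and XPOT, the nuclear export receptor of tRNA, from 40.7 to 114 TPM. Among the members, NBPF12 was nearest to NBPF1 (r = 0.984), followed by NBPF9 (0.977) and NBPF11 (0.957). These values follow the shift with CJ28. Over deviations from the group means, r with NBPF1 was 0.12 for NBPF12, 0.41 for NBPF9 and −0.01 for NBPF11, and the highest was 0.47 for NBPF10.

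**Figure D5:**
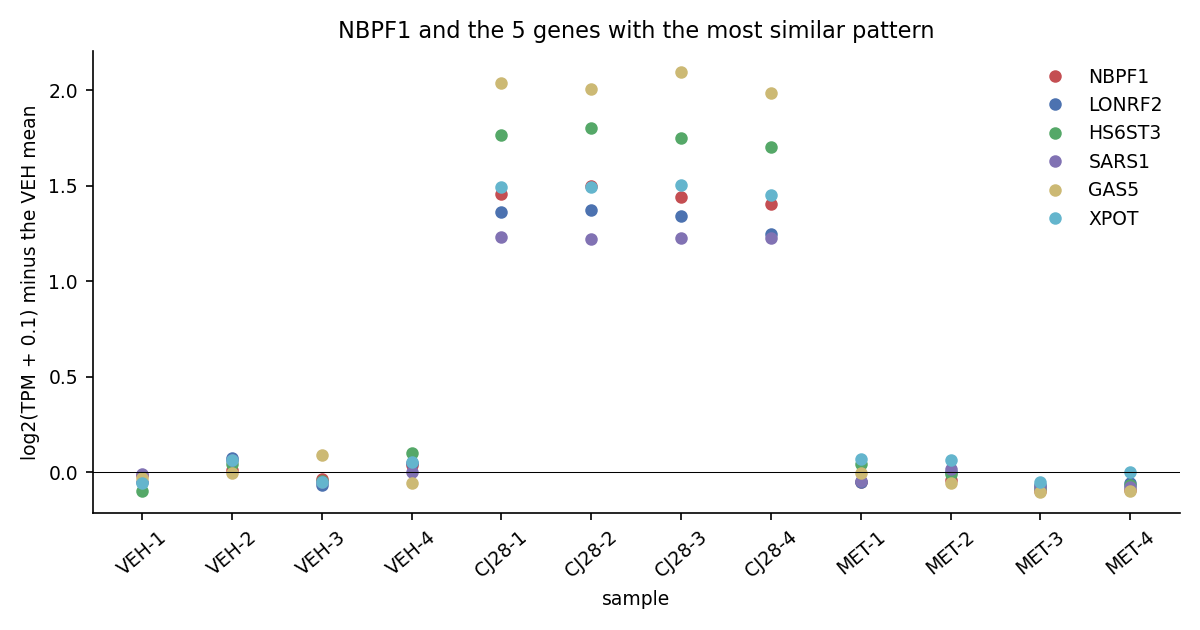
Log2(TPM + 0.1) of NBPF1 and of the 5 genes with the nearest pattern, in each sample, relative to the VEH mean of the gene. In the CJ28 samples the genes lie between 1.22 (SARS1) and 2.10 (GAS5), and in the VEH and MET samples close to 0.

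The cells carried most markers of their labelled type. Of 9 adrenocortical markers, 8 were above 0 and 6 were at 1 TPM or more in every sample. HSD3B2 (at most 0.97 TPM) and MC2R (at most 1.22 TPM) were low, and CYP11B1 reached at most 0.05 TPM. The summed level of the 9 markers was 274 to 284 TPM with VEH, 115 to 122 TPM with CJ28 and 273 to 286 TPM with MET. NR0B1 went the other way, from 2.58 to 3.22 TPM with VEH to 5.37 to 5.96 TPM with CJ28. Of 8 markers of the adrenal medulla and of neuroblasts, the lineage of neuroblastoma, MYCN and TH were among those listed at 0 in all samples, and the list summed to at most 1.25 TPM. Fibroblast markers summed to at most 1.59 TPM, leukocyte markers to 0.53 TPM and endothelial markers to 0.11 TPM.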

How the data were processed

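Total RNA of 12 NCI-H295R samples (VEH, CJ28 and MET, 4 each, grouped by title) was sequenced. Per the submitters' notes and the study's methods, the authors trimmed reads with Cutadapt (2.8), mapped them to GRCh38 with STAR (2.7.10b) and quantified genes with RSEM (1.3.3), which divides reads matching several genes. The deposited values are TPM, to 2 decimals. The annotation release is not given in the sources used here, and TPM keep no depth. The read numbers that the study lists were not used here. The study used DESeq2 on counts, which were not analysed here. The deposited table also holds another column, the span of each gene, used for positions.

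The members and lists were chosen with earlier results of these data known. Log2(TPM + 0.1) was fitted in limma (3.58.1, R 4.3.3; lmFit, eBayes with trend) over the 16815 genes with at least 0.5 TPM in at least 4 samples, all samples in one fit, with two-sided p adjusted by Benjamini-Hochberg at 0.05. The fit was tested on simulated data. Family sums were compared by an exact permutation test over 70 assignments. Named genes were the members, other NBPF entries, at most 4 genes per list (the highest VEH means), overlapping genes and the 5 nearest to NBPF1. From the list of other multicopy families, 3 single-copy TBC1D genes were dropped after the table was seen. RefSeq windows of GRCh38.p14 and GENCODE 44 transcripts gave sequences (Biopython 1.88). Of gene identifiers, 99.6% matched GENCODE 44 apart from version, and 82.1% with the version. Gene ends of NBPF8, NBPF9, NBPF12 and NBPF19 lay 6752, 1841, 420 and 293 bases from the deposited ones, both ends added. The shares of transcript stretches may therefore differ from those of the transcripts that were quantified. Python (3.11.15), numpy (2.4.6), scipy (1.17.1), pandas (2.3.3) and matplotlib (3.10.9) were used. Alternatives were pseudocounts of 1 and 0.01, other filters on low values, median-of-ratios scaling, TPM over nuclear protein-coding genes, only the 2 groups compared, a replicate block, other sums and leaving out each sample in turn.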

Additional observations from a re-analysis of the deposited data

Results flagged for a closer look

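In 33 groups of 4 samples, the highest or lowest value was compared with the rest, and 2 stood apart by Dixon's test at 95%, where chance flags about 1 in 20 groups. NBPF8 measured 7.5 TPM in CJ28 replicate 1, against 6.85 to 6.95 TPM in the other CJ28 samples. Without that sample its log2 difference between CJ28 and VEH was 0.25, against 0.28 with it. NBPF12 measured 6.68 TPM in CJ28 replicate 3, against 7.69 to 7.87 TPM in the others, and its log2 difference was 0.84 without that sample and 0.79 with it.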

How the results depend on the processing

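The log2 ratio of the summed members between CJ28 and VEH, 0.91 as reported, was 1.07 with median-of-ratios scaling, 1.16 over nuclear protein-coding genes (without NBPF8, which is not in that class) and 0.34 without NBPF1. Between CJ28 and MET, 0.98 became 1.10, 1.21 and 0.41 under the same settings and 0.93 with all NBPF entries. Leaving out single samples gave 0.90 to 0.93, 0.97 to 0.99 and, for MET against VEH, −0.09 to −0.05 (exact permutation p 0.0571 to 0.229). Between CJ28 and VEH, 7 to 8 members were called over the alternatives, and between CJ28 and MET 6 to 10. None was called between MET and VEH under any of them, where the smallest adjusted p was 0.689, in a fit without 1 sample. NBPF10 and NBPF3, not called between CJ28 and VEH, changed sign, with ranges of −0.07 to 0.24 and −0.22 to 0.05. No called member changed sign.

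Same-numbered samples did not deviate together. Their mean correlation was 0.024 between CJ28 and VEH, −0.024 between MET and VEH and −0.048 between CJ28 and MET, so no pairing was seen. A lack of correlation cannot show that same-numbered samples were handled apart, and the labels do not say. With the replicate number as a block, 8, 8 and 0 members were called and the summed log2 ratios were 0.91, 0.98 and −0.07 (exact sign-flip test, p = 0.25 for the last, where 0.125 is the smallest possible).

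The values keep no read number, so no counting error is given for single samples. RSEM's division of reads limits NBPF10, NBPF14 and NBPF19 most.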

Other observations

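Other multicopy families, which RSEM also has to divide, were set beside NBPF. Of 109 entries in the table, 36 passed the filter on low values. Between CJ28 and VEH 14 were called higher, 7 lower and 15 not, beside 19.9% of all genes called higher and 37.1% lower. The median log2 difference was 0.38, against 0.42 for the NBPF members and −0.13 for all genes tested. GOLGA8A, of a family of golgin copies, went from 20.6 to 28.3 TPM. LRRC37A4P went from 15.8 to 9.40 TPM. ANKRD36C was lower by 0.37 on the log2 scale, and NPIPA9 differed by −0.12. With MET none of the 36 was called.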
